A study of Mus musculus with 6 samples.

Results

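Elastic fibres are the extracellular cables that let tissues recoil, and the 10 genes described here encode their core proteins. They are elastin (*Eln*), the fibrillins *Fbn1* and *Fbn2*, the microfibril-associated glycoproteins *Mfap2* and *Mfap5*, and the fibulin family genes *Fbln1*, *Fbln2*, *Fbln5*, *Efemp1* and *Efemp2*. They were chosen by name, with earlier results of these data known. Each was found in the table of exonic counts by Ensembl identifier, matched to GRCm38 GENCODE symbols. All 10 of 10 were present among the 55401 rows of the table. All 10 also passed the filter on low counts (at least 2 counts in at least 5 of 6 libraries), which left 22318 genes for testing.

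The study examined what the semaphorin receptor Plexin-B1 does in Schwann cells (SCs), the glia that ensheath peripheral axons. Poly(A) RNA from primary SC cultures, grown from dorsal root ganglia (DRGs) of adult mice, was sequenced in bulk from 3 WT and 3 *Plxnb1-/-* cultures. *Plxnb1-/-* mice carried the constitutive null allele *Plxnb1* tm1Matl (a gene trap with a transmembrane segment, lacZ and neo) and, like all lines of the study, were kept on a C57BL/6 background. The control libraries are labelled WT and the methods name their RNA as WT, while heterozygous littermates also served as controls in the study at large. Cultures of both genotypes were expanded in serum-containing medium with forskolin and neuregulin, depleted of fibroblasts with a Thy1 antibody on magnetic beads, and passaged, at a stated purity that allows a minority of other cells. The libraries are numbered 1 to 3 within each genotype, but nothing states that each came from a separate animal, so p-values measure the spread between these cultures, which may be technical.

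Depth was high and similar in both genotypes. The WT libraries held 63883476, 59252048 and 70967747 counts (replicates 1, 2 and 3, the order used throughout), and the *Plxnb1-/-* libraries held 77280964, 72461964 and 69385956. At these depths a level of 3 counts corresponds to between 0.0383 and 0.0513 on the counts-per-million (CPM) scale, well below every gene of the group. CPM was scaled by TMM factors, which correct for composition, and log2 fold changes are *Plxnb1-/-* over WT throughout.

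The cultures carried the SC label well by most defining genes. *Sox10*, the transcription factor that specifies SCs, stood at 503, 432 and 524 CPM in WT and 507, 564 and 580 CPM in *Plxnb1-/-* cultures, and *Ncam1* had the highest CPM of the 12 SC markers, at 941, 887 and 957 CPM in WT. *S100b* was the low exception, at 7.09 to 8.22 CPM over all 6 libraries. Genes of fibroblasts, which are major producers of elastic fibres, were also abundant. *Col1a1* had the highest CPM of the 12 fibroblast and mesenchymal markers in WT, with 5695, 7095 and 5869 CPM, and *Thy1*, the antigen used for depletion, was measured at 429, 652 and 490 CPM. Over all 6 libraries *Pdgfrb* lay at 563 to 727 CPM, *Dcn* at 234 to 320 CPM and *Pdgfra* at 56.4 to 91.0 CPM. *Lum* lay at 39.1 to 48.5 CPM and *Twist2* at 6.35 to 9.89 CPM. The fibroblast genes *Dpt* and *Pi16* lay near 1 CPM, at 0.386 to 0.781 CPM and 0.601 to 1.23 CPM. SCs in culture also express collagens, and the source of these transcripts was not tested. In bulk samples fewer cells of a type and less RNA per cell cannot be told apart, and this holds for each level given here.

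An elastic fibre is built outside the cell. Fibrillins assemble into microfibrils, microfibril-associated glycoproteins decorate them, and tropoelastin, guided by fibulins, is deposited on this scaffold and cross-linked by lysyl oxidases. Microfibrils also hold latent TGF-β and bone morphogenetic proteins (BMPs). In nerve, elastic fibres and microfibrils lie mainly in the connective tissue sheaths and around vessels.

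*Plxnb1* itself, which checks the genotype labels, was measured at 61.8, 45.4 and 96.4 CPM in WT cultures and at 13.1, 16.6 and 18.6 CPM in *Plxnb1-/-* cultures. Every *Plxnb1-/-* library lay below every WT library, as the labels have it. *Plxnb1* fell by 2.08 on the log2 scale (SE 0.25, n = 3 per genotype; edgeR's quasi-likelihood test, Benjamini-Hochberg adjusted p = 0.0449; DESeq2 adjusted p = 2.74e-06). A gene-trap allele can still be transcribed up to its cassette, and the deposited counts per gene do not show where in the gene the remaining reads lie. The paper reports, from its read tracks, that exons past the cassette lost expression in *Plxnb1-/-* SCs. The edgeR call was lost when any of 4 libraries was left out, with adjusted p = 0.0886 without WT replicate 1 and 0.255, 0.268 and 0.125 without *Plxnb1-/-* replicates 1, 2 and 3, where the log2 fold change lay between −2.19 and −1.95. It was also lost with edgeR's own expression filter (adjusted p = 0.0715) and with limma on log2(FPKM + 0.1) (adjusted p = 0.413). With limma on log2(FPKM + 1) the log2 fold change was −1.14 (adjusted p = 0.413). DESeq2 called *Plxnb1* with each of the 6 libraries left out in turn (adjusted p = 4.98e-22 to 0.00148).

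Across the elastic fibre genes, elastin and 2 of the short fibulins stood on opposite sides. *Eln* had the lowest ratio, with a *Plxnb1-/-* mean at 0.480 of the WT mean, followed by *Mfap5* at 0.649 and *Fbn1* at 0.809. *Efemp1* had the highest ratio, 1.67, and *Fbln5*, a fibulin that binds tropoelastin, stood at 1.25. The 5 others, *Fbn2*, *Mfap2*, *Efemp2*, *Fbln1* and *Fbln2*, had overlapping genotypes.

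None of the 10 genes passed edgeR's quasi-likelihood test at an adjusted p of 0.05 and an absolute log2 fold change of 0.25, a rule that called 8 of 22318 genes (0.0358%). At an unadjusted p under 0.05 edgeR gave 5 of the 10 genes, against 13.7% of all tested genes. DESeq2, under the same thresholds, called 3 of 10, against 1.5% of all genes. Of these, *Eln* was lower (0.811% of all genes were called lower) and *Fbln5* and *Efemp1* were higher (0.69% were called higher). Without WT replicate 3 DESeq2 called 1 of 10, *Efemp1*, without WT replicate 1 it called 4, and without each other library 2. No share of all genes is given for these fits, so their counts lack a background. When every gene with a count was kept, edgeR called 4 of 10 (*Eln*, *Mfap5*, *Fbln5* and *Efemp1*), against 0.949% of 31191 genes. The genotypes did not overlap in CPM in 5 of 10 genes, against 19.7% of all tested genes: 3 were lower (background 10.4%) and 2 were higher (background 9.3%). The median log2 fold change of the 10 genes was −0.04, beside 0.00496 over all tested genes, so the group as a whole was centred near 0 with members on both sides.

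**Figure D1:**
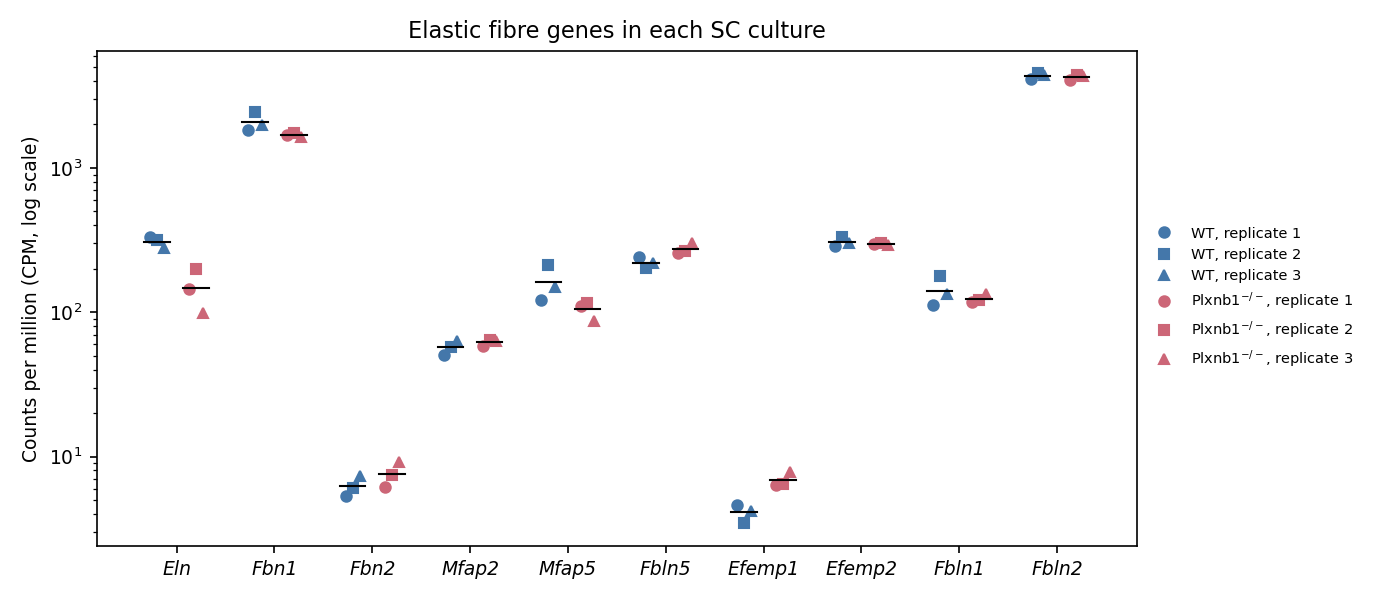
Level of each elastic fibre gene in each culture, as CPM on a log axis (n = 3 cultures per genotype; marker shape gives the replicate number, black lines the means). *Eln* lies at 277 to 333 CPM in WT and 99.5 to 200 CPM in *Plxnb1-/-* cultures, while *Fbln2* lies at 4051 to 4530 CPM over all 6.

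*Eln* (chr5:134702593-134747323, minus strand, GRCm38) encodes tropoelastin, the monomer of the elastic core. It was measured at 333, 317 and 277 CPM in WT cultures and at 145, 200 and 99.5 CPM in *Plxnb1-/-* cultures. The WT cultures were close together, the *Plxnb1-/-* cultures were spread widely, and the highest of them was still below the lowest WT culture. The log2 fold change was −1.06 (95% CI −1.52 to −0.60; SE 0.20, n = 3 per genotype), the largest in size among the 10 genes, with an edgeR adjusted p of 0.235 and a DESeq2 adjusted p of 0.0213. Over all alternatives its adjusted p ranged from 4.34e-15 to 0.433.

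The direction of the *Eln* difference was the same with each culture left out, while its DESeq2 call was not. Leaving out each library in turn gave log2 fold changes between −1.34 (without *Plxnb1-/-* replicate 2) and −0.84 (without *Plxnb1-/-* replicate 3). DESeq2 kept the call without either of these 2 libraries, with adjusted p = 4.34e-15 and 4.27e-07. It lost the call without WT replicates 1, 2 or 3 (adjusted p = 0.0738, 0.202 and 0.0772) and without *Plxnb1-/-* replicate 1 (adjusted p = 0.117).

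The fibrillins form the microfibril backbone. *Fbn1* (chr2:125300594-125507993, minus strand), the main fibrillin of adult tissues, was measured at 1818, 2455 and 1984 CPM in WT and 1678, 1737 and 1646 CPM in *Plxnb1-/-* cultures. The *Plxnb1-/-* cultures lay within a narrow band just below the lowest WT culture, and WT replicate 2 stood high. The log2 fold change of −0.31 (SE 0.10) did not pass edgeR's test (adjusted p = 0.288) or DESeq2's (adjusted p = 0.0592; 0.00101 to 0.673 over all alternatives). Without WT replicate 2 it was −0.17, and without WT replicate 1 DESeq2 called it lower (log2 fold change −0.40, adjusted p = 0.00101). *Fbn2*, the fibrillin known mainly from development, was scarce, at 5.33, 6.07 and 7.32 CPM in WT and 6.17, 7.46 and 9.09 CPM in *Plxnb1-/-* cultures. Its genotypes overlapped, and the 95% CI of its log2 fold change ran from −0.08 to 0.63. With each library left out in turn, edgeR's log2 fold change of *Fbn2* lay between 0.13 and 0.41.

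The microfibril-associated glycoproteins, small proteins that bind fibrillin, differed from each other. *Mfap5* (chr6:122505845-122529290, plus strand) was measured at 121, 212 and 150 CPM in WT and at 111, 116 and 86.6 CPM in *Plxnb1-/-* cultures. The genotypes were separated only by the small gap between WT replicate 1 and *Plxnb1-/-* replicate 2. The log2 fold change was −0.62 (95% CI −1.04 to −0.20), with an edgeR adjusted p of 0.283 and a DESeq2 adjusted p of 0.206 (0.0232 to 0.772 over all alternatives). WT replicate 2 carried much of this difference: without it the log2 fold change was −0.37, and without WT replicate 1 it was −0.79, where DESeq2 called it (adjusted p = 0.0232). *Mfap2* (chr4:141010418-141015984, plus strand) was measured at 50.8, 57.7 and 63.1 CPM in WT and at 58.6, 64.4 and 62.8 CPM in *Plxnb1-/-* cultures, with overlapping genotypes and a log2 fold change of 0.11 (95% CI −0.06 to 0.29). By edgeR it was 0.04 without WT replicate 1 and 0.19 without WT replicate 3.

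The short fibulins bring tropoelastin and the cross-linking enzymes together on microfibrils. *Fbln5* (chr12:101746565-101819055, minus strand) was measured at 240, 201 and 219 CPM in WT and at 256, 267 and 300 CPM in *Plxnb1-/-* cultures. All 3 *Plxnb1-/-* cultures were above all 3 WT cultures, opposite to *Eln*. The log2 fold change was 0.32 (SE 0.08, n = 3 per genotype; edgeR adjusted p = 0.266, DESeq2 adjusted p = 0.0140, 0.000539 to 0.673 over all alternatives). DESeq2 lost the call without WT replicate 3 (adjusted p = 0.0939) and without *Plxnb1-/-* replicates 2 or 3 (adjusted p = 0.0881 and 0.351), and in these 3 fits its log2 fold change lay between 0.25 and 0.34.

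*Efemp1* (chr11:28853204-28926743, plus strand), a short fibulin known from the eye and connective tissue, was rare. Its counts were 295, 202 and 299 in WT libraries and 493, 466 and 539 in *Plxnb1-/-* libraries, or 4.61, 3.45 and 4.22 CPM against 6.30, 6.43 and 7.77 CPM. The gap between the genotypes was wider than the range within either. The log2 fold change was 0.74 (95% CI 0.44 to 1.03; SE 0.13, n = 3 per genotype), with an edgeR adjusted p of 0.199, the smallest of the 10 genes, and a DESeq2 adjusted p of 0.00012 (7.31e-05 to 0.592 over all alternatives). DESeq2 called *Efemp1* with each of the 6 libraries left out in turn, which held for no other gene of the group. With limma on log2(FPKM + 0.1) and log2(FPKM + 1) the log2 fold change of *Efemp1* was 0.31 and 0.05. Its deposited FPKM was only 0.0464 to 0.106 over all 6 libraries, and added constants of this size or larger shrink a log2 fold change.

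*Efemp2* (chr19:5473954-5482517, plus strand), the short fibulin that binds lysyl oxidase, was measured at 289, 332 and 304 CPM in WT and at 298, 303 and 294 CPM in *Plxnb1-/-* cultures. All 3 *Plxnb1-/-* values lay inside the WT range. The log2 fold change was −0.05, with a 95% CI from −0.17 to 0.07.

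The longer fibulins are components of basement membranes and blood vessel walls as well as of elastic fibres. *Fbln2* (chr6:91212455-91272540, plus strand) was measured at 4152, 4530 and 4378 CPM in WT and at 4051, 4416 and 4333 CPM in *Plxnb1-/-* cultures. It had the narrowest interval of the 10 genes, with a log2 fold change of −0.03 and a 95% CI from −0.15 to 0.09. *Fbln1* (chr15:85205949-85286535, plus strand) was measured at 112, 178 and 134 CPM in WT and at 117, 121 and 135 CPM in *Plxnb1-/-* cultures. WT replicate 2 stood above the 5 other libraries, and the log2 fold change of −0.19 (95% CI −0.51 to 0.13) was 0.02 without it.

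**Figure D2:**
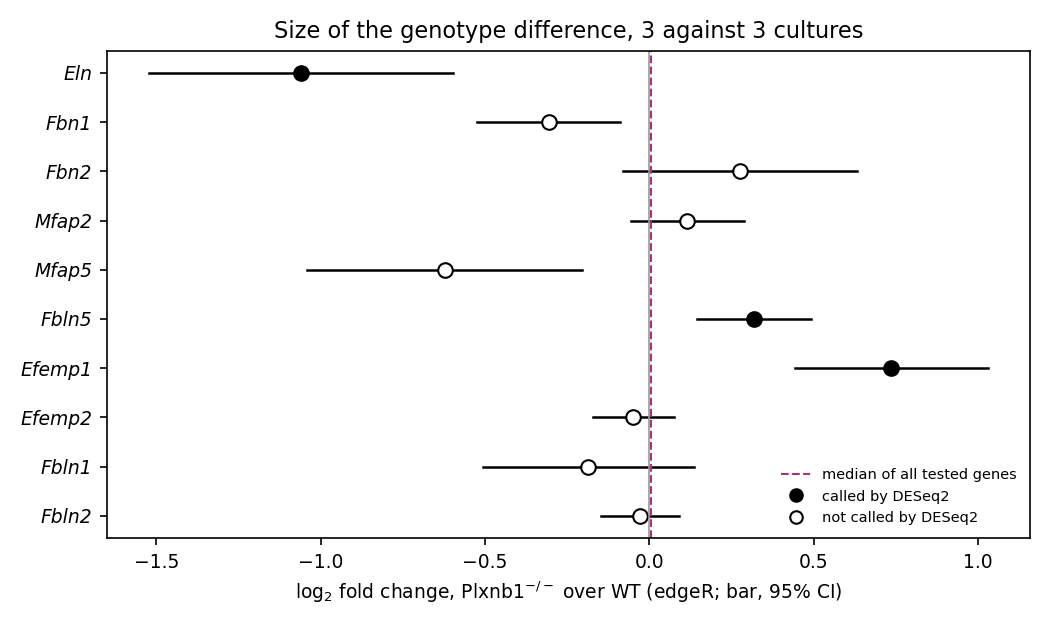
Log2 fold change of each elastic fibre gene, *Plxnb1-/-* over WT, from edgeR with its 95% CI (n = 3 cultures per genotype); filled points were called by DESeq2 and the dashed line is the median of all tested genes. *Eln* lies at −1.06, *Efemp1* at 0.74 and *Fbln5* at 0.32, and edgeR called none.

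The 10 genes were ranked per length, as CPM per kilobase of annotated exon (RPKM). In WT cultures *Fbln2* led at 683 ± 29.9 RPKM (SD, n = 3), followed by *Fbn1* at 172 ± 27.2 and *Efemp2* at 81.5 ± 5.78 RPKM, and these 3 ranges did not overlap. *Mfap2* (47.2 ± 5.10), *Mfap5* (44.9 ± 12.9), *Eln* (38.2 ± 3.59), *Fbln1* (32.3 ± 7.68) and *Fbln5* (31.8 ± 2.80 RPKM) followed, each overlapping the next. *Efemp1* (2.01 ± 0.290 RPKM) and *Fbn2* (0.472 ± 0.0760 RPKM) were far below. The WT set was dominated by *Fbln2*, which made up 60.3% of the summed RPKM of the 10 genes.

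In *Plxnb1-/-* cultures the top 4 places and the bottom 2 places in RPKM were held by the genes that held them in WT. In between, *Fbln5* took rank 5 at 39.7 ± 3.34 RPKM, above *Mfap5* (29.1 ± 4.40) and *Fbln1* (28.4 ± 2.12), which overlapped each other, and *Eln* took rank 8 at 18.3 ± 6.22 RPKM. *Eln* thus stood at rank 6 in WT and rank 8 in *Plxnb1-/-* cultures. *Fbln2* made up 63.3% of the sum. RPKM may be understated for genes with many short exons, since the aligner used by the authors, Bowtie2, does not place reads across introns. *Eln* has 36 exon blocks with a median of 61.5 bases, against 126 bases in the 65 blocks of *Fbn1*, and the effect on the order was not tested.

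Ratios within a culture set the elastic core against its scaffold and its fibulin. *Fbln5* per *Eln*, in RPKM, was 0.845, 0.743 and 0.927 in WT cultures and 2.07, 1.56 and 3.54 in *Plxnb1-/-* cultures. *Eln* exceeded *Fbln5* in RPKM in every WT culture and *Fbln5* exceeded *Eln* in every *Plxnb1-/-* culture, an order that depends on the length used: in the deposited FPKM *Eln* still exceeded *Fbln5* in *Plxnb1-/-* replicate 2 (4.48 against 3.68). *Eln* per *Fbn1* was 0.274, 0.194 and 0.209 in WT and 0.130, 0.173 and 0.0905 in *Plxnb1-/-* cultures, and *Mfap5* per *Mfap2* was 0.805, 1.24 and 0.804 against 0.638, 0.609 and 0.466. The pairs were chosen with the values known, the separation of *Fbln5* per *Eln* follows from those of its 2 genes, and none of the ratios was tested.

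Single cultures differed in ways that several genes shared. WT replicate 2 had the highest CPM of all 6 libraries in 5 of 10 genes (*Fbn1*, *Fbln1*, *Fbln2*, *Efemp2* and *Mfap5*), and *Plxnb1-/-* replicate 3 had the highest in 3 (*Fbn2*, *Fbln5* and *Efemp1*) and the lowest of *Eln*, *Fbn1* and *Mfap5*. The sum of the 12 fibroblast and mesenchymal markers was 17269, 21303 and 17995 CPM in WT and 15816, 16564 and 16118 CPM in *Plxnb1-/-* cultures, again highest in WT replicate 2 and lower in every *Plxnb1-/-* culture. *Col1a1*, *Col1a2* and *Col3a1* made up 91.1 to 92.3% of this sum, so it is mainly a collagen sum. Of these 12 markers 10 were lower and 2 higher, DESeq2 called *Col1a1* (log2 fold change −0.30) lower and *Dpep1* (0.82, at 0.750 to 2.42 CPM) higher, and edgeR called none (6 had an unadjusted p under 0.05, against 13.7% of all tested genes). Over all tested genes 48.5% had a negative log2 fold change, and DESeq2 called 0.811% lower and 0.69% higher. The 12 SC markers summed to 4163, 3646 and 4232 CPM in WT and 4244, 4662 and 4681 CPM in *Plxnb1-/-* cultures, with 11 of 12 higher, none called by either tool and 9 at an unadjusted edgeR p under 0.05. *Ngfr* had the largest change of this list (log2 fold change 0.30).

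The 3 genes without overlap that were lower were set against the fibroblast marker sum of the same culture, which was lower too. *Eln* was 19.3, 14.9 and 15.4 CPM per 1000 CPM of fibroblast markers in WT and 9.18, 12.1 and 6.17 in *Plxnb1-/-* cultures, still without overlap. *Mfap5* (7.01, 9.94 and 8.35 in WT; 7.01, 7.01 and 5.37 in *Plxnb1-/-*) and *Fbn1* (105, 115 and 110 in WT; 106, 105 and 102 in *Plxnb1-/-*) overlapped. Without the 3 collagens the sum itself overlapped (1338, 1847 and 1534 CPM in WT; 1403, 1371 and 1368 CPM in *Plxnb1-/-*), and on that scale all 3 genes were lower without overlap: *Eln* at 249, 172 and 180 against 103, 146 and 72.7, *Mfap5* at 90.5, 115 and 98.0 against 79.1, 84.7 and 63.3, and *Fbn1* at 1359, 1329 and 1294 against 1196, 1266 and 1204. The overlap of *Mfap5* and *Fbn1* thus depended on the collagens.

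The 2 genes that were higher were set against the SC marker sum, which was higher in the mean. *Fbln5* was 57.6, 55.2 and 51.7 CPM per 1000 CPM of SC markers in WT and 60.3, 57.2 and 64.1 in *Plxnb1-/-* cultures, with overlap. *Efemp1* was 1.11, 0.946 and 0.998 in WT and 1.48, 1.38 and 1.66 in *Plxnb1-/-* cultures, without overlap. Per 1000 CPM of fibroblast markers, a sum that was lower in *Plxnb1-/-* cultures, both genes were higher without overlap. *Fbln5* was then 13.9, 9.45 and 12.2 in WT against 16.2, 16.1 and 18.6, and *Efemp1* 0.267, 0.162 and 0.235 against 0.398, 0.388 and 0.482. These scales were chosen after the data were seen, and the part of cell content in these levels was not tested.

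**Figure D3:**
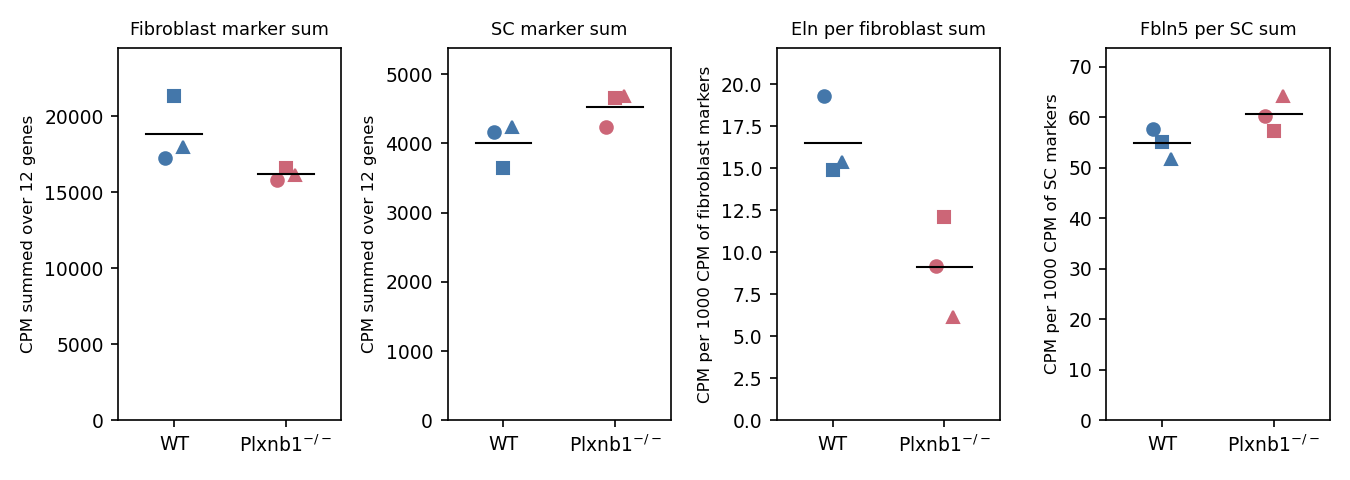
Summed CPM of 12 fibroblast and 12 SC markers, CPM of *Eln* per 1000 CPM of the fibroblast sum, and CPM of *Fbln5* per 1000 CPM of the SC sum, in each culture (n = 3 per genotype; marker shape gives the replicate number, black lines the means). The fibroblast sum is highest in WT replicate 2 at 21303 CPM, *Eln* per fibroblast sum lies at 14.9 to 19.3 in WT and 6.17 to 12.1 in *Plxnb1-/-* cultures, and *Fbln5* per SC sum lies at 51.7 to 57.6 and 57.2 to 64.1.

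Other cell types that make elastic fibres were also looked for. The 9 smooth muscle and pericyte markers summed to 1715, 2258 and 1851 CPM in WT and 1589, 1603 and 1478 CPM in *Plxnb1-/-* cultures, with 5 of 9 lower and 4 higher. *Acta2*, the highest in CPM and in RPKM, was lower in *Plxnb1-/-* cultures by DESeq2 (log2 fold change −0.42), as was *Cnn1* (−0.44), the marker of this list with the largest change. Over all tested genes DESeq2 called 0.811% lower, and 48.5% had a negative log2 fold change. edgeR called none of the 9, and 5 had an unadjusted p under 0.05, all lower, against 13.7% of all tested genes. *Myh11*, which defines mature smooth muscle, lay at 5.02 to 14.0 CPM (log2 fold change 0.21, not called). The 8 endothelial markers, 6 lower and 2 higher, summed to 86.6 to 113 CPM, most of it *Cdh5* (51.6 to 68.0 CPM), with *Pecam1* at 1.08 to 3.72 CPM (log2 fold change −0.66, not called). Neither tool called any of the 8, and 2 had an unadjusted edgeR p under 0.05 (13.7% of all tested genes did), *Plvap* (−0.57) and *Tek* (0.59). Their part in the *Eln* difference was not tested.

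Markers of the remaining cell types of ganglion and nerve were read in the same way, and the sum of each of these 4 lists was higher in every *Plxnb1-/-* culture than in any WT culture. The 8 perineurial markers summed to 258, 261 and 264 CPM in WT and 275, 273 and 297 CPM in *Plxnb1-/-* cultures, with 3 of 7 tested genes higher and 4 lower. This rise rested on *Itgb4*, without which the sum was 150, 173 and 161 CPM in WT and 157, 143 and 144 CPM in *Plxnb1-/-* cultures. *Slc2a1* was the highest of them per length (28.0 to 33.7 RPKM), *Itgb4* (12.6 to 21.8 RPKM; log2 fold change 0.42) was called higher by DESeq2, and *Lypd2* was at 0 counts in all 6 libraries. The 10 macrophage and leukocyte markers summed to 144, 134 and 119 CPM in WT and 165, 171 and 155 CPM in *Plxnb1-/-* cultures, with 10 of 10 higher. *Lyz2* (0.35, called higher by DESeq2) was the highest in CPM and in RPKM, while *Ptprc* lay at 1.12 to 1.62 CPM and *Aif1* (0.71, not called) below 1 CPM. The 10 neuronal markers summed to 169, 161 and 174 CPM in WT and 175, 181 and 204 CPM in *Plxnb1-/-* cultures, also with 10 of 10 higher. The gap was narrow, from 174 to 175 CPM. Most of the sum was *Tubb3* (143, 127 and 142 CPM in WT and 143, 150 and 153 CPM in *Plxnb1-/-* cultures), with *Rbfox3* and *Isl1* (1.43, not called) below 1 CPM. The 5 satellite glial markers, of which *Cdh19* is also on the SC list, summed to 1101, 982 and 1124 CPM in WT and 1180, 1195 and 1196 CPM in *Plxnb1-/-* cultures, with 5 of 5 higher, *Kcnj10* the highest in CPM and in RPKM, and *Slc1a3* (0.71, not called) at 0.791 to 1.73 CPM. Most of this sum was *Kcnj10* (721, 639 and 752 CPM in WT; 772, 798 and 792 CPM in *Plxnb1-/-*) and *Cdh19* (244, 219 and 241 CPM in WT; 273, 260 and 272 CPM in *Plxnb1-/-*). edgeR called none of the genes in these 4 lists, and 1, 4, 1 and 3 of them, in the order given, had an unadjusted p under 0.05. Over all tested genes 13.7% had such a p and 48.5% a negative log2 fold change. In the same order, 1, 4, 3 and 3 genes were higher without overlap, against 9.3% of all tested genes. Only the perineurial sum was also read without 1 gene, and how far the other sums rest on single genes was not tested.

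Reads of some members may be shared with genes on the opposite strand, because the strand setting used in counting is not stated. *Gm30003* shares 267 exon bases with *Eln* and was called lower by DESeq2, as *Eln* was (log2 fold change −1.09, DESeq2 adjusted p = 0.00026). *Gm9913* shares 2442 exon bases with *Fbn1* (log2 fold change −0.38, DESeq2 adjusted p = 0.00213). *Mus81* shares 173 exon bases with *Efemp2* (log2 fold change 0.13, not called). *Gm30003* reached at most 3.48 RPKM, where *Eln* was at 12.3 RPKM or more, and *Gm9913* reached at most 13.7 RPKM, where *Fbn1* was at 136 RPKM or more. Reads from a gene and its antisense partner cannot be told apart here.

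Partner genes of elastic fibres, 65 in 9 lists, were read in the same cultures. The lists were chosen with earlier results of these data known, so counts set beside the shares of all genes are descriptive only. Of the 59 that were tested, 37 had a negative and 22 a positive log2 fold change, with a median of −0.10. DESeq2 called 9 lower and 2 higher, where it called 0.811% of all tested genes lower and 0.69% higher. The median of all genes was 0.00496, and 48.5% of all tested genes had a negative log2 fold change. edgeR called none of the 59, and 22 had an unadjusted p under 0.05, against 13.7% of all tested genes. These shares of all tested genes are also the background of each list below. Every culture left out moved the DESeq2 count, to 20, 1 and 4 without WT replicates 1, 2 and 3 and to 6, 2 and 0 without *Plxnb1-/-* replicates 1, 2 and 3. The shares of all genes above are for all 6 libraries. No such share is given for the fits with a library left out, so these counts lack a background.

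Of the 5 lysyl oxidases, the enzymes that turn tropoelastin into insoluble elastin, DESeq2 called 2 lower, the direction of *Eln* (0.811% of all tested genes were called lower). *Lox* was measured at 1081, 1501 and 1111 CPM in WT and at 1015, 911 and 834 CPM in *Plxnb1-/-* cultures (log2 fold change −0.42, DESeq2 adjusted p = 0.0243, edgeR adjusted p = 0.276). *Loxl2* had a log2 fold change of −0.36 (DESeq2 adjusted p = 0.0260). Both calls were lost without WT replicate 2 (*Lox* −0.25, adjusted p = 0.0629; *Loxl2* −0.24, adjusted p = 0.0763), without *Plxnb1-/-* replicate 2 (adjusted p = 0.200 and 0.147) and without *Plxnb1-/-* replicate 3 (0.421 and 0.443), and that of *Loxl2* also without WT replicate 3 (0.0750). In 3 of the 5 lysyl oxidase genes the genotypes did not overlap, all lower (10.4% of all tested genes were lower without overlap), and WT replicate 2 was the highest library in each of the 3. *Loxl1*, the lysyl oxidase tied most closely to elastin, was one of these 3 and was not called by DESeq2 (log2 fold change −0.25, adjusted p = 0.0592).

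Growth factors held on microfibrils all had negative log2 fold changes, 6 of 6 tested. DESeq2 called *Tgfb2* (−0.48), *Tgfb3* (−0.33) and *Bmp7* (−0.54), and the list's median was −0.33. *Tgfb2* was measured at 35.3, 39.4 and 32.2 CPM in WT and at 29.4, 25.8 and 21.2 CPM in *Plxnb1-/-* cultures. Its call was lost without *Plxnb1-/-* replicates 2 or 3 (adjusted p = 0.0822 and 0.147). *Tgfb3* was called with only WT replicate 1 left out (adjusted p = 0.0659 to 0.444 without each of the others), and *Bmp7* with only WT replicate 1 or *Plxnb1-/-* replicate 2 left out (adjusted p = 0.0513 to 0.325 without each of the others). The latent TGF-β binding proteins, which dock these ligands on fibrillin, were not called in either direction (0 of 4 by edgeR or DESeq2, 1 at an unadjusted p under 0.05), and *Ltbp1* had the largest log2 fold change, 0.18. Without WT replicate 1 DESeq2 called *Ltbp1* higher (log2 fold change 0.26, adjusted p = 0.0122).

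Fibronectin, on which fibrillin assembles, and the integrins that bind elastic fibre proteins were called in both directions. DESeq2 called *Fn1* (−0.31) and *Itga5* (−0.42), a fibronectin receptor subunit, lower, and called *Itga8* (0.78) and *Itgb8* (0.31) higher. *Itga8* was scarce, at 1.59 to 3.02 CPM in WT and 3.34 to 4.95 CPM in *Plxnb1-/-* cultures. *Itgb8*, whose integrin activates latent TGF-β, was measured at 615, 477 and 619 CPM in WT and 690, 694 and 735 CPM in *Plxnb1-/-* cultures. Of the leave-one-out fits, DESeq2 called *Fn1* only without WT replicate 1 (log2 fold change −0.19, adjusted p = 0.0927, without WT replicate 2), *Itga5* and *Itga8* only without WT replicate 1 or *Plxnb1-/-* replicate 1, and *Itgb8* only without WT replicates 1 or 3 (log2 fold change 0.20 without WT replicate 2, under the threshold of 0.25). Without any other library the adjusted p was 0.0927 to 0.489 for *Fn1*, 0.0683 to 0.595 for *Itga5* and 0.122 to 0.537 for *Itga8*, and for *Itgb8* 0.127 to 0.495 without each of the *Plxnb1-/-* replicates.

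Among proteoglycans, DESeq2 called *Vcan*, whose product binds fibrillin and fibulins, lower (log2 fold change −0.31), and among 7 tested elastin-degrading proteases it called *Mmp9* lower (−0.87, at 5.42, 10.5 and 6.98 CPM in WT and 3.62, 5.28 and 3.61 CPM in *Plxnb1-/-* cultures). *Vcan* was called with only WT replicate 1 left out (adjusted p = 0.0524 to 0.420 without each of the others; log2 fold change −0.19 without WT replicate 2). The *Mmp9* call was lost without WT replicate 2 (log2 fold change −0.57, adjusted p = 0.142) and without *Plxnb1-/-* replicates 1 or 3 (0.106 and 0.709). *Mmp7* was at 0 counts in every library. No gene was called by either tool among 11 tested associated proteins, 9 fibrillin-binding ADAMTS and ADAMTS-like proteins and 5 genes of processing and the elastin receptor, where 2, 1 and 2 genes had an unadjusted edgeR p under 0.05. Their largest log2 fold changes were those of *Emilin3* (0.77, at 0.0282 to 0.110 CPM, close to the level of 3 counts), *Thsd4* (0.37) and *Fkbp10* (−0.20). Without WT replicate 1 DESeq2 called *Fkbp10* lower (log2 fold change −0.26, adjusted p = 0.0144).

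**Figure D4:**
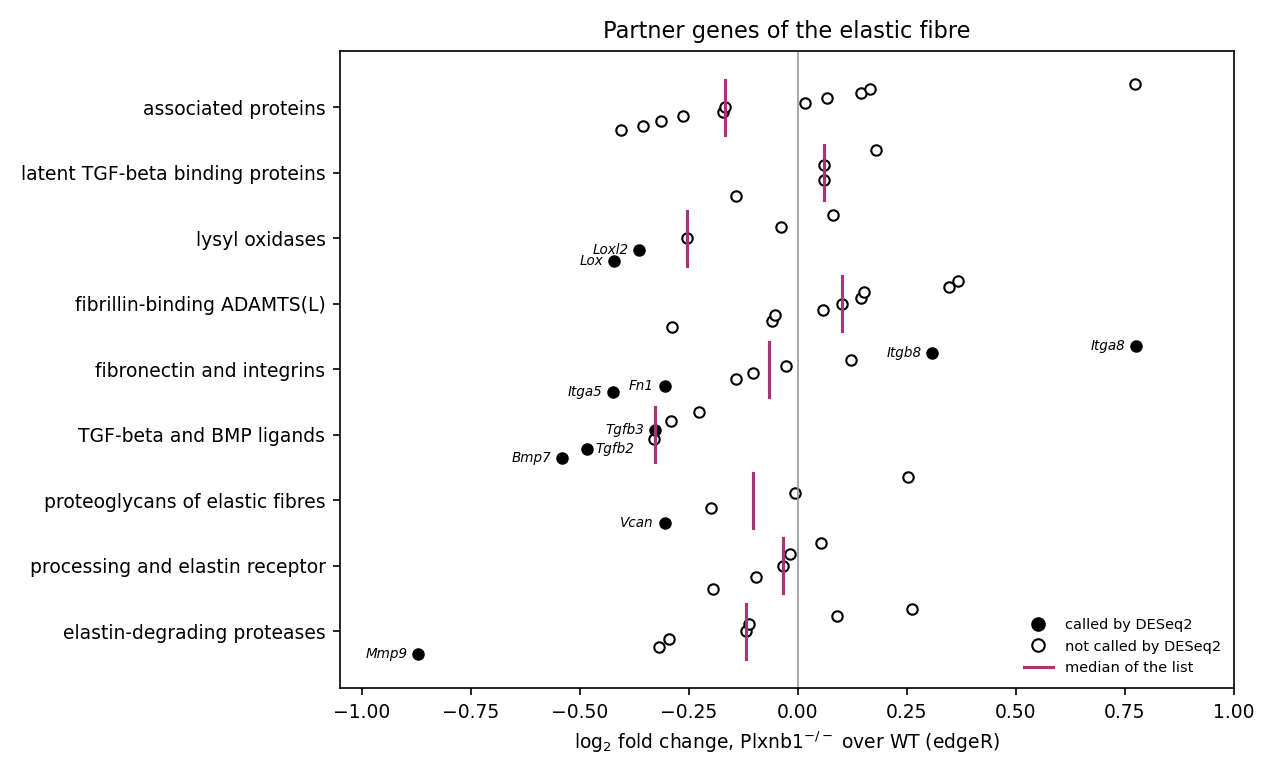
Log2 fold change (edgeR, *Plxnb1-/-* over WT, n = 3 cultures per genotype) of the 59 tested partner genes in 9 lists; filled points were called by DESeq2 and purple lines are list medians. The lowest list median is that of the TGF-β and BMP ligands, −0.33, and the called genes run from *Mmp9* at −0.87 to *Itga8* at 0.78.

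Promoter sequence was taken from RefSeq (GRCm38.p6), which held an entry used here for 7 of the 10 genes. The sequences of *Efemp1* and *Fbln5*, the genes that DESeq2 called higher, are shown because their genotype differences shared a direction; both lie just upstream of the annotated start (for *Fbln5*, the more upstream of 2 starts in the table) and overlap no annotated gene, and the 1 base of the *Efemp1* window that lies in its first exon is left out. Motifs were searched on both strands in the 250 bases before the start: TGANTCA (a loose form of the AP-1 site, with any middle base), CAGACA (a SMAD site), GGGCGG (the GC box), TATAAA (the TATA box), CANNTG (the E box) and the CArG box. *Efemp1* (chr11:28852955-28853203, plus strand, 53.4% G or C) and *Fbln5* (chr12:101819120-101819369, minus strand, 65.2% G or C) are printed with matches to any of these except the E box in capitals.
Efemp1: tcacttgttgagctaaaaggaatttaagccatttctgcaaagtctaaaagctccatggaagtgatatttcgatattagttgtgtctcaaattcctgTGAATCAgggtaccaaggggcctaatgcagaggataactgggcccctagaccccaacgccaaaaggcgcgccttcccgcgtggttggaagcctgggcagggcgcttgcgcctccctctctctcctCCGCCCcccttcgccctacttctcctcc
Fbln5: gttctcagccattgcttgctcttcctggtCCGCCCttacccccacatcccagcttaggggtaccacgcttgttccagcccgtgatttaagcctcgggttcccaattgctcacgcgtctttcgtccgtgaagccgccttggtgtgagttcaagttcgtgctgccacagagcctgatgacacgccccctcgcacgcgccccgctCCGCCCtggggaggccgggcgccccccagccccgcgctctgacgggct
The capitals in *Efemp1* mark 1 TGANTCA match and 1 GC box, and those in *Fbln5* mark 2 GC boxes. The TGANTCA match reads TGAATCA, with A in the middle, where the AP-1 consensus has C or G. A TGANTCA match, with any middle base, was present in 6.87% of 27025 promoters in the RefSeq table and a GC box in 32.9%. Both windows also held 1 E box, found in 66.0% of promoters, and neither held a SMAD match (17.1% of promoters), a TATA box (13.0%) or a CArG box (1.40%). Among the 5 other genes with an entry, *Fbln1* and *Mfap2* held 1 SMAD match each, *Efemp2* held 2 GC boxes and *Fbln2* and *Fbn1* held 1 GC box each, so a GC box was present in 5 of the 7. A match describes these letters only.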

How the data were processed

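RNA was sequenced from 6 SC cultures with a stranded poly(A) kit. According to the submitters' processing notes, reads were trimmed with Trim Galore 0.6.5, aligned to mm10 with Bowtie2 2.4.1, cleared of duplicates with SAMtools 1.10 and counted with featureCounts; the strand setting is not given in the sources used here. The authors deposited whole-number counts on the exons of each gene, not normalized, and FPKM. The deposited FPKM divides by the span of the gene with its introns (within 1%, for 99.5% of the 13855 to 14449 matched genes per library with at least 100 counts), so it served only as an alternative.

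Of 55401 identifiers 55141 matched a GENCODE symbol. The 22318 genes that reached 2 counts in 5 or more of the 6 libraries were tested with edgeR 4.0.16 in R 4.3.3, using TMM factors, a model of genotype alone, the quasi-likelihood test and Benjamini-Hochberg adjustment over all of them. Calls required an adjusted p under 0.05 together with a log2 fold change beyond 0.25 in either direction. SE is the log2 fold change over the square root of F. RPKM is CPM per kilobase of merged exons. Summaries used Python 3.11.15 with pandas 2.3.3 and NumPy 2.4.6.

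Alternatives were DESeq2 1.42.0, other size factors, edgeR's newer estimate, other filters, the replicate block, each library left out, and limma 3.58.1 on log2(FPKM + 0.1) and log2(FPKM + 1). DESeq2 with each library left out and the ratios to fibroblast markers (with and without collagens) and SC markers, and the perineurial sum without *Itgb4*, were added after seeing the data. The 10 genes and all lists were chosen with earlier results of these data known. Named genes are *Plxnb1*, the 10 genes, every partner gene called by edgeR or DESeq2 (or, in a list without a call, the gene with the largest absolute log2 fold change), and for each marker list the gene with the highest mean CPM, the gene with the largest absolute log2 fold change and defining markers near 0. Genes named beyond this rule (*Loxl1*, the antisense partners, other called markers, *Plvap*, *Tek*, *Col1a2*, *Col3a1*, *Slc2a1* as the highest of its list per length) were chosen after their values were seen. Also named outside the rule were *Sox10*, *S100b*, *Thy1*, *Pdgfra*, *Pdgfrb*, *Dcn*, *Lum*, *Twist2*, *Myh11*, *Cdh19*, *Bmp2*, *Bmp4* and *Mmp7*.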

Additional observations from a re-analysis of the deposited data

How the results depend on the processing

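The number of genes called by edgeR over all tested genes moved from 8 to 335 with DESeq2, 296 without a filter on low counts and 5 with the replicate block, and lay between 4 and 25 with each library left out. Calls among the 10 elastic fibre genes moved from 0 to 3 with DESeq2 and 4 without the filter, and among partner genes from 0 to 11 and 7; the cause was not tested. DESeq2 with each library left out called 1 to 4 of the 10 genes and 0 to 20 partner genes, with no share of all genes given for those fits. Log2 fold changes from limma on log2(FPKM + 1) were much smaller for some genes (0.05 for *Efemp1*, 0.01 for *Itga8* and −0.05 for *Bmp7*). The added 1 shrinks the log2 fold change of genes at low FPKM, such as *Efemp1* at 0.0464 to 0.106. By deposited FPKM, which uses gene span as length, 3 of 10 genes kept their place in the WT order. Leaving out libraries, with edgeR or DESeq2, turned the sign of *Fbln1* (−0.33 to 0.016), *Fbln2* (−0.063 to 0.0043) and *Efemp2* (−0.094 to 0.011), none of them called. The other 7 genes and the named partner genes kept their direction in every alternative they were tested in. This leaves out *Loxl1*, *Bmp2* and *Bmp4*, which like the marker and antisense genes were not followed through each alternative. Cultures with the same replicate number shared little deviation from their group means (correlation −0.022, 0.0078 and 0.065 for numbers 1, 2 and 3). Cultures with unlike numbers gave −0.053 to 0.049. Such values cannot exclude that same-numbered cultures were prepared together. The replicate block called 0 of the 10 genes. At a level of 3 counts, no gene of the group was limited by depth.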
